A study of Mus musculus with 899 samples.

Results

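miR-146a-5p (mmu-miR-146a-5p in the mouse) and miR-146b-5p (mmu-miR-146b-5p) are the mature products of the 5′ arms of a pair of microRNA (miRNA) genes, and both were measured in the plasma of C3H and C57Bl/6 mice before and after whole thorax lung irradiation (WTLI). The rule that selects them is their names and uses no measured value, although they were proposed with earlier results of these data known, and they are 2 of the 1915 mature miRNA in the table of read counts. The table holds 899 plasma libraries from 196 mice. C3Hf/Sed/Kam mice (C3H) comprised 64 irradiated and 32 sham irradiated animals, and C57Bl/6 mice comprised 68 irradiated and 32 sham irradiated animals, with males and females in each arm. Males were 8 to 10 weeks old and females 10 to 12 weeks old, and the treatment was 1 X-ray exposure of the chest with the remaining body under lead. Blood was drawn before irradiation (PT), then from some mice of each group at day 2 (D2) and from the others at day 5 (D5), and monthly from month 1 (M1) to month 4 (M4) in C3H mice and to month 6 (M6) in C57Bl/6 mice. The sample labels also place the mice in label groups, G1 and G3 for C57Bl/6 and G2 and G4 for C3H, and sampling after M1 was limited to G1 and G2. A group of 1 strain, treatment and time point held from 8 mice (irradiated C57Bl/6 at M6) to 68 mice (irradiated C57Bl/6 at M1), and the late irradiated groups hold the animals that were still sampled. The question addressed was whether the plasma level of these miRNA differed between irradiated and sham irradiated mice of the same strain at the same time.

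miR-146a is best known as a brake on innate immune signalling. Its gene is transcribed in response to NF-κB after Toll-like receptor or interleukin 1 stimulation, and the miRNA in turn lowers the signalling adaptors TRAF6 and IRAK1, whose messages it binds through its seed. miR-146b is encoded on another chromosome, carries the same seed and is expressed with different kinetics in immune and other cells. Circulating copies reach plasma from blood cells and tissues in vesicles or bound to protein, so a plasma level does not name its source.

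The sequences show how alike the members are, and the seed, bases 2 to 8 from the 5′ end, is in capitals in each (RefSeq, GRCm38.p6).
mmu-miR-146a-5p: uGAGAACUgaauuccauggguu
mmu-miR-146b-5p: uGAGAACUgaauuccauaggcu
Both mature sequences have 22 bases, share the first 17 and differ at 2 positions counted from the 5′ end, G18A and U21C (miR-146a-5p first). Below, the differing bases are in capitals.
mmu-miR-146a-5p: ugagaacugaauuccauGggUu
mmu-miR-146b-5p: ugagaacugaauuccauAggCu
Of the 1679 mature mouse miRNA in the reference, these 2 carry the seed GAGAACU. miR-146a-5p lies at chr11:43374435-43374456 on the minus strand, inside the Mir146 hairpin (chr11:43374397-43374461), which overlapped no other annotated gene. miR-146b-5p lies at chr19:46342790-46342811 on the plus strand, in the Mir146b hairpin (chr19:46342762-46342870) within an intron of Mfsd13a, a protein-coding gene on the same strand. Because the sequences part only near the 3′ end, a read that stops early or carries a base error there could be given to the wrong member, and how such reads were assigned is not given in the sources used here.

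Total reads per library ranged from 206490 to 11814515, with a median of 1475030. Group medians lay between 855374 and 2882714 reads. miR-146a-5p was an abundant plasma miRNA, with 596 to 186998 reads per library (median 10212), 0.753% of all reads and rank 22 by mean log2 CPM. The highest value, 186998 reads, came from the deepest library. miR-146b-5p was far scarcer, with 5 to 2232 reads per library (median 110), 0.00998% of all reads and rank 128. Neither member was absent from any library, and 7 libraries held fewer than 10 reads of miR-146b-5p, so its values carry more counting error. The 3p arms were near the limit of detection, with 304 reads of miR-146a-3p spread over 101 libraries and 271 reads of miR-146b-3p over 96, and they were not tested. Levels below are log2 CPM, reads of a miRNA expressed per fixed number of library reads and scaled between libraries by trimmed mean of M values (TMM).

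**Figure D1:**
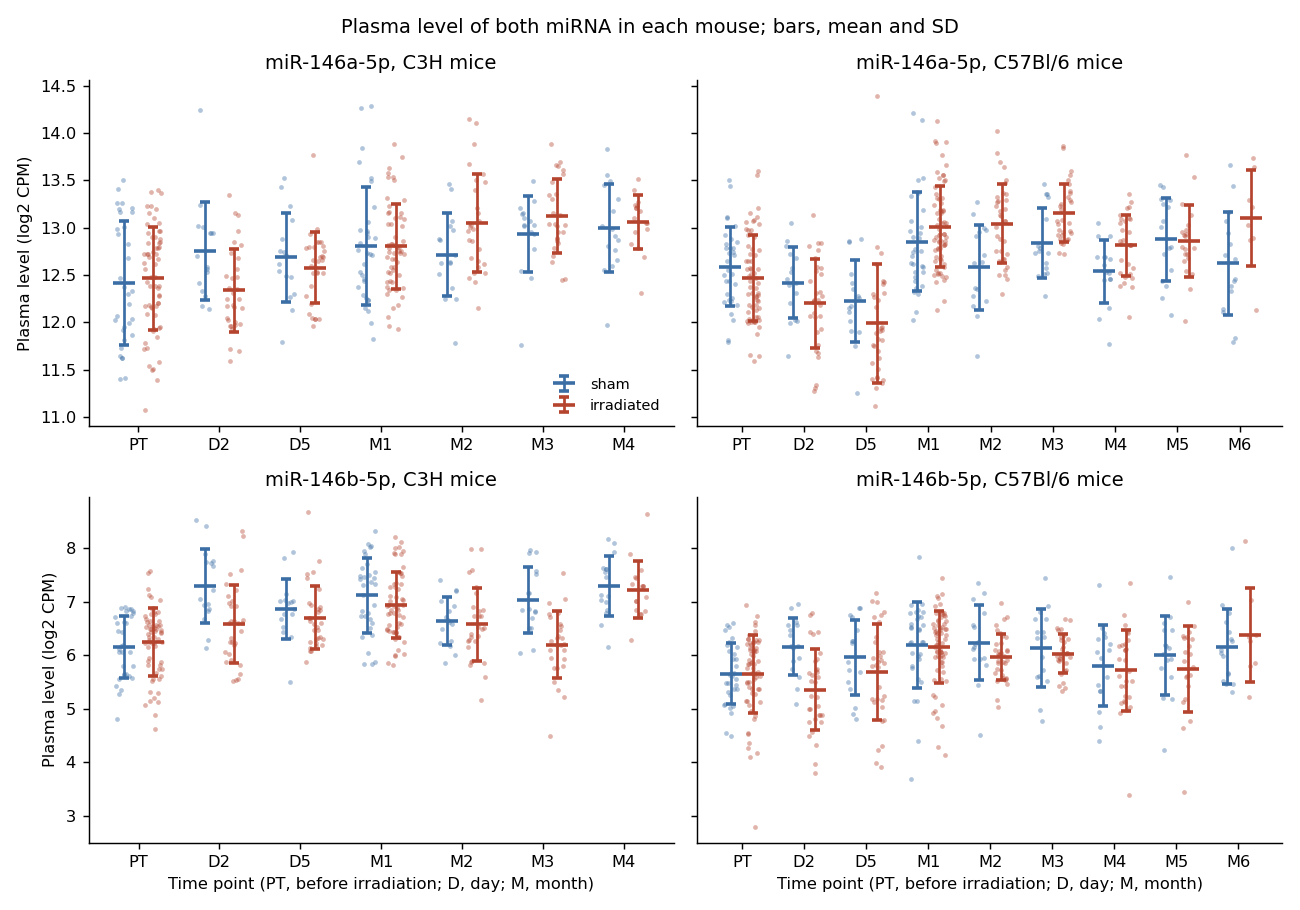
Plasma level (log2 CPM) of miR-146a-5p (top) and miR-146b-5p (bottom) in each library by time point, for C3H (left) and C57Bl/6 mice (right). Blue marks sham irradiated and red irradiated mice, dots are libraries, and bars give the mean and SD. At D2 irradiated means of miR-146b-5p lie below the sham means in both strains, and dots of both arms overlap at each time point.

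Group means of miR-146a-5p lay within 1.17 log2 units of each other. The highest was 13.15 ± 0.31 (SD, n = 31) in irradiated C57Bl/6 mice at M3 and the lowest 11.99 ± 0.63 (n = 32) in the same arm at D5. Means of miR-146b-5p spanned 1.94 log2 units. Sham irradiated C3H mice held the top of that order, at 7.29 ± 0.56 (n = 16) at M4 and 7.29 ± 0.70 (n = 16) at D2, and irradiated C57Bl/6 mice at D2 the bottom, at 5.35 ± 0.76 (n = 32). When the 32 groups were ordered by mean, no neighbouring pair differed by more than the smaller of their SDs for either miRNA. The largest gap between neighbours was 0.21 for miR-146a-5p and 0.29 for miR-146b-5p. With 32 means ordered within these spans, neighbours lie close, so the order does not test whether groups differ. In the median library there were 87.0 reads of miR-146a-5p for each read of miR-146b-5p.

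Before irradiation the arms did not differ detectably. At PT the difference between mice later irradiated and mice later sham irradiated was 0.00 log2 units (SE 0.10) for miR-146a-5p and 0.11 (SE 0.14) for miR-146b-5p in C3H mice, and −0.10 (SE 0.10) and 0.04 (SE 0.14) in C57Bl/6 mice, with adjusted p from 0.973 to 1 (edgeR quasi-likelihood test, Benjamini-Hochberg over the 483 miRNA tested). In that comparison 0% of the tested miRNA passed an adjusted p of 0.05 in either strain.

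miR-146b-5p was lower in irradiated than in sham irradiated mice at D2 in both strains. In sham irradiated C3H mice its level ran from 6.13 to 8.53 with a median of 7.14 (n = 16), and in irradiated C3H mice from 5.52 to 8.32 with a median of 6.60 (n = 32). The groups overlapped, with 26 of the 32 irradiated mice under the sham median, 9 under every sham mouse and 0 above every sham mouse. The fitted difference was −0.69 (SE 0.19), or 1.61-fold lower, with adjusted p = 0.0175 (edgeR). At that comparison 4.97% of tested miRNA passed in either direction and 3.31% were called lower. The C57Bl/6 sham level ran from 5.08 to 6.96 with a median of 6.17 (n = 16) and the irradiated level from 3.80 to 6.79 with a median of 5.38 (n = 32). Here 27 of the 32 irradiated mice fell under the sham median, 14 under every sham mouse and 0 above every sham mouse. The fitted difference was −0.70 (SE 0.20), or 1.63-fold lower, with adjusted p = 0.0114 (edgeR), against 6.63% of tested miRNA called and 4.35% called lower.

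miR-146a-5p at D2 passed the threshold in C3H mice and not in C57Bl/6 mice. In sham irradiated C3H mice it ran from 12.14 to 14.24 with a median of 12.65, and in irradiated C3H mice from 11.60 to 13.34 with a median of 12.25. The irradiated group reached lower, with 24 of 32 mice under the sham median and 11 under every sham mouse. The difference was −0.45 (SE 0.14), or 1.37-fold lower, with adjusted p = 0.0409 (edgeR). Within G4 the difference was −0.69 (SE 0.19, adjusted p = 0.017) and within G2 −0.15 (SE 0.18, adjusted p = 0.895). Whether these label groups differed in it was not tested. With the label group as a covariate it was −0.40 (SE 0.13, adjusted p = 0.0421, edgeR). With the mouse as a fixed replicate block it was −0.42 (SE 0.16, adjusted p = 0.248, limma-voom). In C57Bl/6 mice the D2 difference of miR-146a-5p was −0.19 (SE 0.14, adjusted p = 0.494). For miR-146b-5p the D2 difference kept its sign in each label group, at −0.63 (SE 0.27) in G2, −0.74 (SE 0.28) in G4, −0.88 (SE 0.28) in G1 and −0.49 (SE 0.28) in G3, although with fewer mice the adjusted p was 0.307, 0.168, 0.028 and 0.496.

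**Figure D2:**
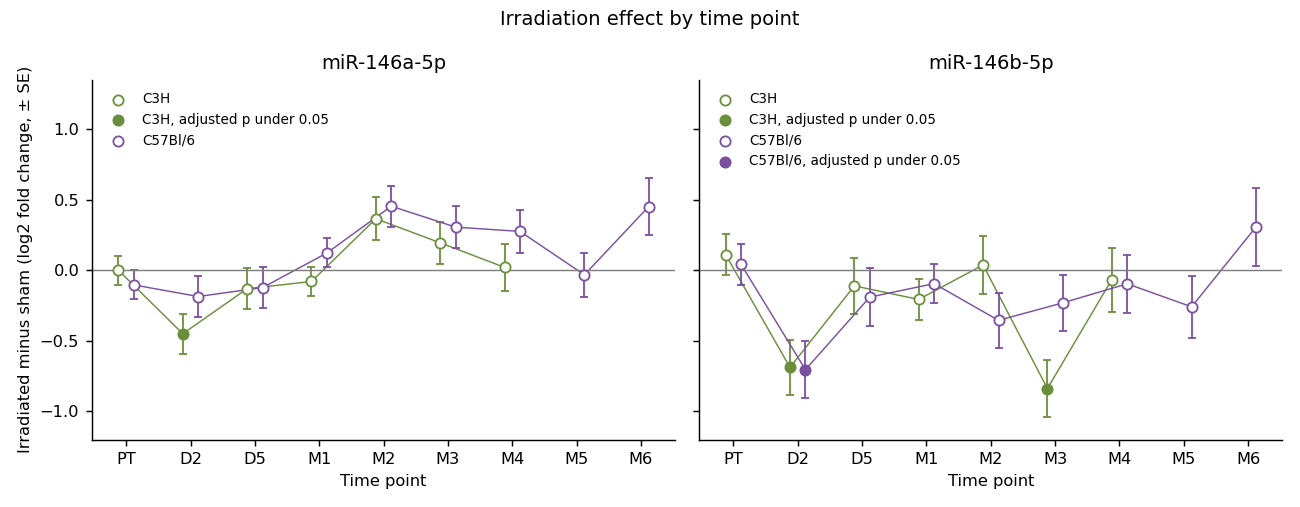
Irradiated minus sham log2 fold change (± SE, edgeR) of miR-146a-5p (left) and miR-146b-5p (right) by time point, in green for C3H and purple for C57Bl/6 mice, with filled points at adjusted p under 0.05. The 4 filled points lie below 0, at D2 for miR-146a-5p in C3H mice, at D2 for miR-146b-5p in both strains, and at M3 for miR-146b-5p in C3H mice (−0.84).

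Other plasma miRNA and library depth moved with the D2 groups. The 5 leukocyte miRNA summed were miR-150-5p, miR-142a-3p, miR-142a-5p, miR-155-5p and miR-223-3p. Their summed level ran from 3700 to 26400 CPM (median 16400) in sham irradiated C3H mice. In irradiated C3H mice it ran from 3870 to 10100 CPM (median 5790). By edgeR, 4 of the 5 were called lower there, beside 3.31% of all tested miRNA. The C57Bl/6 sum ran from 7030 to 17800 CPM (median 11700) in sham irradiated and from 3270 to 12000 CPM (median 6930) in irradiated mice. There 2 of the 5 were called lower, beside 4.35% of all tested miRNA. miR-150-5p, abundant in mature lymphocytes, fell by 1.70 (SE 0.14, adjusted p = 4.56e-27) in C3H and by 1.55 (SE 0.15, adjusted p = 9.72e-23) in C57Bl/6 mice (edgeR). None of the 5 was at 0 throughout a group. In plasma, fewer cells of a type and less RNA released per cell cannot be told apart. The study reported lower white blood cell and lymphocyte counts in irradiated mice of both strains within days of WTLI. The part of these counts in the miRNA levels was not tested. None of 5 red blood cell miRNA passed at D2 in either strain, by edgeR. Depth also differed in C57Bl/6 mice at D2, with a median of 859418 total reads in irradiated against 1300997 in sham irradiated mice, and a median of 34 against 93 reads of miR-146b-5p. Without libraries under 500000 reads the C57Bl/6 difference of miR-146b-5p was −0.74 (SE 0.21, adjusted p = 0.0147). At D5, 3 of the 5 leukocyte miRNA were called lower in irradiated C3H mice (median summed level 7290 against 14000 CPM), beside 1.45% of tested miRNA. In irradiated C57Bl/6 mice 4 of 5 were called lower (8170 against 16300 CPM), beside 7.87%. The D5 differences of miR-146b-5p were −0.11 (SE 0.20, adjusted p = 0.963) in C3H and −0.19 (SE 0.21, adjusted p = 0.603) in C57Bl/6 mice (edgeR). The part of the leukocyte miRNA in the D2 differences was not tested.

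At M3 miR-146b-5p was again lower in irradiated C3H mice. In sham irradiated mice it ran from 6.04 to 7.96 with a median of 6.85 (n = 16), and in irradiated mice from 4.49 to 7.54 with a median of 6.21 (n = 27). Most irradiated mice sat low in the range, 24 of 27 under the sham median and 9 under every sham mouse, and the groups overlapped. The difference was −0.84 (SE 0.20), or 1.79-fold lower, with adjusted p = 0.00449 (edgeR), against 2.07% of tested miRNA called and 1.24% called lower. With the mouse as a fixed replicate block the difference was −0.82 (SE 0.24) with adjusted p = 0.0702. It was not seen at the months on either side, where the differences were 0.04 (SE 0.20) at M2 and −0.07 (SE 0.23) at M4. miR-146a-5p at M3 differed by 0.20 (SE 0.15, adjusted p = 0.533) in the same mice, and none of the 5 leukocyte miRNA was called there by edgeR. The corresponding difference of miR-146b-5p in C57Bl/6 mice at M3 was −0.23 (SE 0.20, adjusted p = 0.769).

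No other time point passed in edgeR. miR-146a-5p was thus called at 1 of 6 time points in C3H mice and 0 of 8 in C57Bl/6 mice, and miR-146b-5p at 2 of 6 and 1 of 8. The share of tested miRNA called at the other time points was 3.11% at D5, 3.31% at M1, 0.621% at M2 and 0.414% at M4 in C3H mice, and 14.1% at D5, 3.73% at M1, 3.31% at M2, 1.66% at M3, 4.76% at M4, 3.52% at M5 and 0.414% at M6 in C57Bl/6 mice. At an unadjusted p under 0.05, miR-146a-5p also differed at M2 in C3H mice and at M2, M3 and M6 in C57Bl/6 mice, each time higher in irradiated mice. The uncalled differences of miR-146b-5p ranged from −0.35 (C57Bl/6, M2) to 0.31 (C57Bl/6, M6), and those of miR-146a-5p from −0.19 (C57Bl/6, D2) to 0.45 (C57Bl/6, M2 and M6).

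The nearest uncalled result was miR-146a-5p in C57Bl/6 mice at M2. Its level ran from 11.64 to 13.27 with a median of 12.63 in sham irradiated mice (n = 16) and from 12.30 to 14.02 with a median of 13.07 in irradiated mice (n = 36). The irradiated group reached higher, 12 of 36 mice lying above every sham mouse and 6 under the sham median. The difference was 0.45 (SE 0.15), or 1.37-fold higher, with adjusted p = 0.0543 (edgeR). It passed in 6 of 15 alternative fits, among them within G1 alone (0.39, SE 0.13, adjusted p = 0.0449) and with the mouse as a fixed replicate block (0.57, SE 0.16, adjusted p = 0.026). It did not pass in the others, among them the study's normalization (adjusted p = 0.106), no filter on low counts (0.131) and leaving out mice that lack a PT sample (0.141). In irradiated C3H mice at M2 the difference was 0.37 (SE 0.15, adjusted p = 0.358). Beside the C57Bl/6 value, the summed leukocyte miRNA ran from 5820 to 22500 CPM (median 13000) in sham irradiated and from 8370 to 25800 CPM (median 18800) in irradiated mice, miR-150-5p was higher by 0.54 (SE 0.15), the liver miRNA miR-122-5p by 1.36 (SE 0.34) and the pancreatic miR-216a-5p by 3.06 (SE 0.40), and their part in the result was not tested. By edgeR, 1 of 5 leukocyte, 2 of 2 hepatocyte (miR-122-5p and miR-192-5p) and 2 of 3 pancreas miRNA (miR-216a-5p, miR-217-5p and miR-375-3p) were called higher there. The share over all tested miRNA was 2.28%.

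Each mouse carried its own number, so later samples could be set against the mouse's own PT sample, with 28 comparisons of irradiated with sham irradiated mice adjusted together. In C57Bl/6 mice miR-146a-5p rose more in irradiated than in sham irradiated mice at M2, M3 and M4. At M2 it changed by 0.71 ± 0.37 (SD, n = 32) in irradiated mice, rising in 31 of 32, and by 0.17 ± 0.38 (n = 16) in sham irradiated mice, rising in 10 of 16. These groups differed by 0.54 (permutation test, adjusted p = 0.00084). At M3 they differed by 0.48 (permutation test, adjusted p = 0.0113), with a change of 0.91 ± 0.44 (n = 27) against 0.43 ± 0.45 (n = 16). At M4 they differed by 0.48 (permutation test, adjusted p = 0.0014), with a change of 0.60 ± 0.35 (n = 25) against 0.13 ± 0.32 (n = 16). These p-values are adjusted over the 28 comparisons of the members. The mice followed to these months were those of G1, whose arms had unlike means at PT. There miR-146a-5p was 12.27 ± 0.36 (n = 32) in later irradiated and 12.41 ± 0.36 (n = 16) in sham irradiated mice. Without subtracting PT, mean log2 CPM of the arms differed by 0.46 at M2, 0.32 at M3 and 0.275 at M4. The part of the PT means in the changes was not tested. Adjusted over all tested miRNA, the group difference did not pass at M3 (0.31, SE 0.15, adjusted p = 0.409) or M4 (0.28, SE 0.15, adjusted p = 0.319) in edgeR, nor in any of 15 alternative fits at either month, the mouse as a fixed replicate block included (0.42, SE 0.16, adjusted p = 0.258 at M3). Liver and pancreas miRNA were also higher in irradiated C57Bl/6 mice at these months, miR-122-5p by 1.47 (SE 0.35) at M3 and 2.97 (SE 0.38) at M4 and miR-216a-5p by 2.43 (SE 0.38) and 2.30 (SE 0.38), and their part in the result was not tested. By edgeR, 1 of 2 hepatocyte miRNA was called higher at M3 and 2 of 2 at M4. Of 3 pancreas miRNA, 2 were called higher at each, beside 1.24% of tested miRNA at M3 and 3.11% at M4. The comparison at M5 gave 0.28 (exact permutation test, adjusted p = 0.295), and at M6, with 8 irradiated mice, 0.64 (exact permutation test, adjusted p = 0.195).

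In C3H mice miR-146a-5p lay above its PT level in both arms at those months, and the arms were not shown to differ. In G2 its PT level was 12.04 ± 0.40 (n = 32) in later irradiated and 11.85 ± 0.26 (n = 16) in sham irradiated mice. Without subtracting PT, mean log2 CPM of the arms differed by 0.33 at M2. From PT to M2 miR-146a-5p changed by 1.04 ± 0.70 (n = 28) in irradiated and 0.87 ± 0.52 (n = 16) in sham irradiated mice, a difference of 0.17 (permutation test, adjusted p = 0.783). At M3 the difference was 0.04 (permutation test, adjusted p = 0.935), and at M4 it was −0.07 (exact permutation test, adjusted p = 0.813). At D2 in C3H mice it changed by −0.17 ± 0.76 (n = 32) in irradiated and 0.34 ± 0.77 (n = 16) in sham irradiated mice, a difference of −0.51 (permutation test, adjusted p = 0.142). For miR-146b-5p the difference at D2 had the sign of the group comparison in both strains. In C3H mice all 16 sham irradiated mice rose from PT, by 1.13 ± 0.57, whereas irradiated mice changed by 0.25 ± 0.95, with 20 of 32 rising, and the difference was −0.89 (permutation test, adjusted p = 0.0113). In C57Bl/6 mice sham irradiated mice changed by 0.23 ± 0.67, with 9 of 16 rising, and irradiated mice by −0.56 ± 1.01, with 24 of 32 falling, a difference of −0.79 (permutation test, adjusted p = 0.0375). Scaled by total reads in place of TMM, the C57Bl/6 difference at D2 was −0.58 (permutation test, adjusted p = 0.248). At M3 in C3H mice the difference was −0.71 (permutation test, adjusted p = 0.087).

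**Figure D3:**
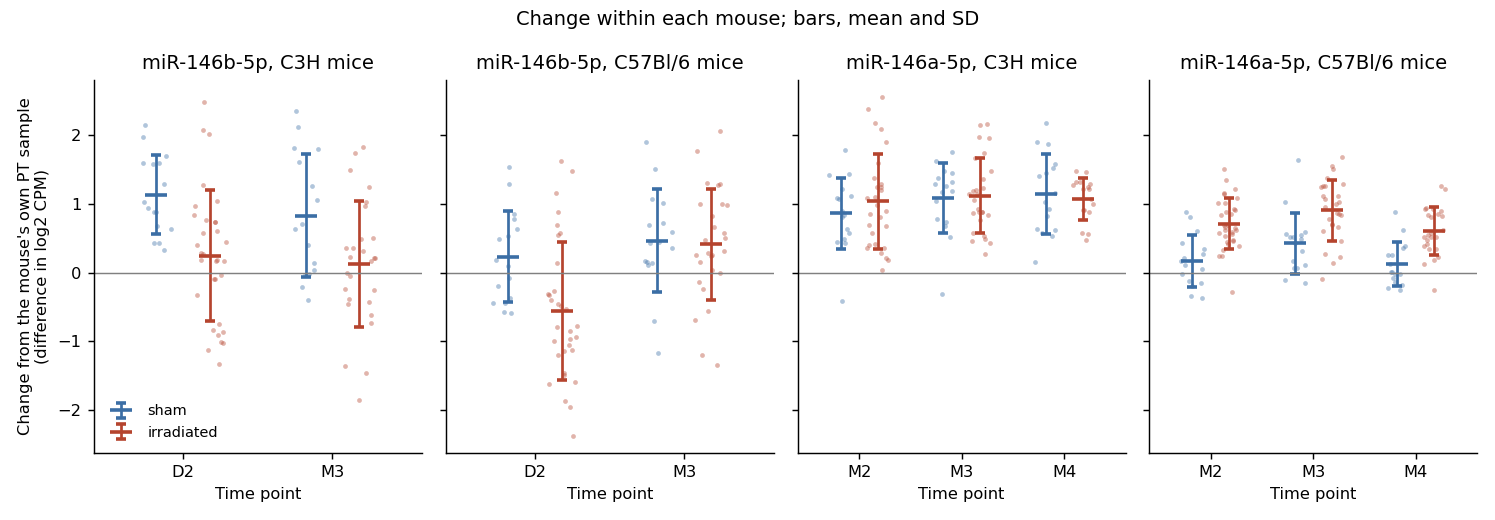
Change in log2 CPM from the mouse's own PT sample, for miR-146b-5p at D2 and M3 and miR-146a-5p at M2, M3 and M4, in C3H and C57Bl/6 mice. Blue marks sham irradiated and red irradiated mice, each dot is a mouse and bars give the mean and SD. At D2 all 16 sham irradiated C3H mice lie above 0 for miR-146b-5p, and at M2 31 of 32 irradiated C57Bl/6 mice lie above 0 for miR-146a-5p.

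The label groups differed in miR-146a-5p before any irradiation. At PT, over both arms, miR-146a-5p was 0.99 log2 units (SE 0.09, adjusted p = 9.5e-24, edgeR), or 1.99-fold, higher in G4 than in G2 of the C3H mice, a comparison in which 54.9% of tested miRNA were called. It was 0.40 (SE 0.09, adjusted p = 0.000148), or 1.32-fold, higher in G3 than in G1 of the C57Bl/6 mice, with 31.5% called. miR-146b-5p differed by 0.02 (SE 0.14, adjusted p = 0.919) and −0.10 (SE 0.14, adjusted p = 0.642) in the same comparisons. Since G3 and G4 were not sampled after M1, comparisons of late time points with PT that pool label groups mix this difference with time, which the within-mouse changes do not.

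**Figure D4:**
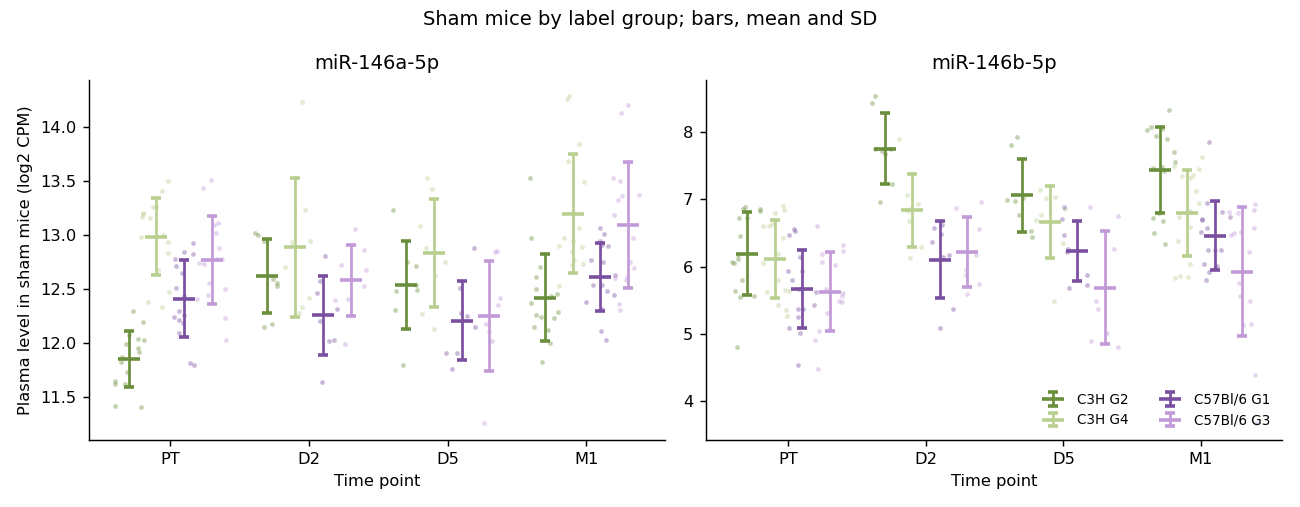
Plasma level (log2 CPM) in sham irradiated mice by label group at the time points that all label groups share, for miR-146a-5p (left) and miR-146b-5p (right). Dark and light green mark G2 and G4 (C3H), dark and light purple G1 and G3 (C57Bl/6), dots are libraries and bars give the mean and SD. At PT miR-146a-5p was 11.85 ± 0.26 in G2, below the other label groups, while miR-146b-5p lay between 5.63 and 6.19 in all 4.

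The irradiation effect was not shown to differ between strains. A joint test of D2, D5 and M1 to M4 gave adjusted p = 0.884 for miR-146a-5p and 0.805 for miR-146b-5p (edgeR F test), and 4.35% of tested miRNA were called. At M3 the difference of miR-146b-5p between the strains was 0.61 (SE 0.29, unadjusted p = 0.0356, adjusted p = 0.729). A p above the threshold does not show that the strains responded alike, and whether the within-mouse changes of miR-146a-5p differed between strains was not tested.

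The sham irradiated strains did differ, but no label group held both strains, so strain and label group cannot be told apart here. miR-146b-5p had a lower mean in C57Bl/6 than in C3H mice at 7 of the 7 times sampled in both, and the joint test gave adjusted p = 2.18e-22 (edgeR F test), where 62.9% of tested miRNA were called. The difference was −0.51 (SE 0.17) at PT, −1.22 (SE 0.23) at D2, −0.85 (SE 0.24) at D5, −0.91 (SE 0.16) at M1, −0.86 (SE 0.23) at M3 and −1.42 (SE 0.24) at M4, each past the threshold, and −0.33 (SE 0.23, adjusted p = 0.403) at M2. The largest, at M4, corresponds to 2.67-fold. The share of tested miRNA called was 32.5% at PT, 21.9% at D2, 33.5% at D5, 25.3% at M1, 10.4% at M2, 11% at M3 and 29.8% at M4. Between G1 and G2 the miR-146b-5p difference was −0.43 (SE 0.23, adjusted p = 0.125, edgeR) at PT and −1.74 (SE 0.32, adjusted p = 4.65e-06) at D2. Between G3 and G4 it was −0.51 (SE 0.23, adjusted p = 0.113) at PT and −0.74 (SE 0.33, adjusted p = 0.111) at D2. At D5 and M1 it passed in both pairs of label groups. miR-146a-5p also passed over the shared time points (adjusted p = 0.00344, edgeR F test), with lower levels in C57Bl/6 mice at D5 (−0.47, SE 0.17) and M4 (−0.49, SE 0.17), but its order depended on the label groups, since at PT the difference was 0.69 (SE 0.15) between G1 and G2 and −0.22 (SE 0.16) between G3 and G4.

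Both members drifted in sham irradiated mice. miR-146b-5p lay above its PT level at each later time point in both strains, by 0.44 to 1.20 in C3H and 0.23 to 0.63 in C57Bl/6 mice. The test over later time points gave adjusted p = 1.26e-09 in C3H mice, where 46% of tested miRNA were called, and 0.0195 in C57Bl/6 mice, where 62.9% were called (edgeR F test). The C57Bl/6 call was lost with the mouse as a random replicate block (adjusted p = 0.0773), within G1 (0.0788), with limma-voom (0.0825), without a filter on low counts (0.0567) and without libraries under 500000 reads (0.065). The highest point in C3H mice was D2, at 1.20 (SE 0.19, adjusted p = 4.16e-08) above PT, with 25.7% of tested miRNA called. Within label groups this rise was 1.58 (SE 0.26) in G2 and 0.75 (SE 0.27, adjusted p = 0.0974) in G4. Irradiated C3H mice at D2, at 6.58 ± 0.73 (n = 32), were thus between their PT level of 6.25 ± 0.63 (n = 64) and the sham level of 7.29 ± 0.70, whereas irradiated C57Bl/6 mice at D2 (5.35 ± 0.76) lay under their PT level of 5.64 ± 0.73 (n = 64). miR-146a-5p changed in sham irradiated C3H (adjusted p = 0.0153) and C57Bl/6 mice (adjusted p = 0.000216, edgeR F test). In the sham irradiated C3H mice of G2 it was 1.15 ± 0.58 above the mouse's own PT level at M4, higher in 16 of 16, and in the C57Bl/6 mice of G1 it was 0.21 ± 0.74 above at M6, higher in 11 of 16. Terminal blood was drawn from the heart and earlier blood from behind the eye. Where the last sample was terminal, the drift with time and the site of bleeding cannot be told apart at that time point. Before it, miR-146a-5p in sham irradiated C3H mice was already 0.87 ± 0.52 above PT at M2 and 1.09 ± 0.51 at M3. Samples of the same sham irradiated mouse resembled each other modestly, with an intraclass correlation after removing group means of 0.29 in C3H and 0.31 in C57Bl/6 mice for miR-146a-5p, and 0.18 and 0.15 for miR-146b-5p. Label group means were not removed, so likeness within a label group is held in these values too.

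miR-146a-5p differed between males and females without a common direction, and since the males were younger, sex and age cannot be told apart. Over all time points sham irradiated males and females differed in C3H (adjusted p = 0.00162, with 11.6% of tested miRNA called) and C57Bl/6 mice (adjusted p = 0.00859, with 32.3% called; edgeR F test). The male minus female difference ran from −0.61 at D2 to 0.61 at M2 in C3H mice and from −0.49 at PT to 0.55 at M6 in C57Bl/6 mice, and the single value past the threshold was that at PT in C57Bl/6 mice (−0.49, SE 0.16, adjusted p = 0.0404, with 6.63% called). miR-146b-5p did not pass in C3H (adjusted p = 0.129) or C57Bl/6 mice (adjusted p = 0.0734). Over D2, D5 and M1 the irradiation effect did not pass a test of the sex difference for either member (edgeR F test). Adjusted p was 0.973 and 0.273 for miR-146a-5p and 1 and 0.751 for miR-146b-5p in C3H and C57Bl/6 mice. The shares of tested miRNA called were 0.414% and 5.38%. From M2 on this sex difference was not tested. In C57Bl/6 females at M2, miR-146a-5p was 13.26 ± 0.39 (n = 20) in irradiated and 12.58 ± 0.45 (n = 8) in sham irradiated mice. In males it was 12.76 ± 0.25 (n = 16) and 12.59 ± 0.48 (n = 8). At D2 in C3H mice miR-146a-5p differed by −0.76 (SE 0.19) in females and −0.07 (SE 0.20) in males, and miR-146b-5p by −0.79 (SE 0.27) and −0.60 (SE 0.27).

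The ratio of the members within a library does not depend on scaling between libraries. At the 14 comparisons after irradiation the mean log2 ratio of miR-146a-5p to miR-146b-5p was higher in irradiated mice, and 3 passed. In C57Bl/6 mice at D2 the median ratio was 71.9 in sham irradiated and 123 in irradiated mice, a difference of 0.59 in mean log2 ratio (permutation test, adjusted p = 0.0356). This call was lost over libraries with at least 10 reads of both members. There the difference was 0.54 with 30 irradiated and 16 sham irradiated mice (permutation test, adjusted p = 0.0576). At M2 the median ratio was 70.6 and 145, a difference of 0.72 (permutation test, adjusted p = 0.00917). In C3H mice at M3 it was 68.2 and 125, a difference of 1.03 (permutation test, adjusted p = 0.00266). The others differed by 0.04 to 0.42, with adjusted p from 0.0611 to 0.861 (permutation tests), and the PT differences were −0.05 and −0.11. At D2 in C3H mice, where both members were lower, the difference was 0.30 (permutation test, adjusted p = 0.405). In sham irradiated mice the median ratio was 56.4 over 144 C3H libraries and 102 over 176 C57Bl/6 libraries.

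**Figure D5:**
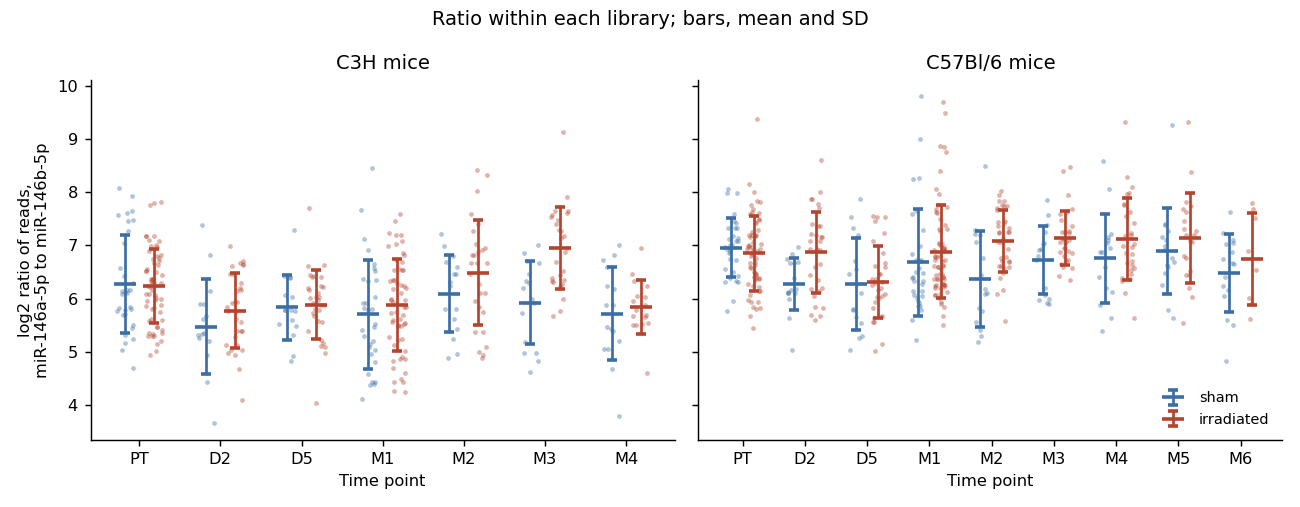
log2 ratio of reads of miR-146a-5p to miR-146b-5p in each library by time point, in C3H (left) and C57Bl/6 mice (right). Blue marks sham irradiated and red irradiated mice, dots are libraries and bars give the mean and SD. The widest gap between the arms is at M3 in C3H mice, 6.95 ± 0.77 against 5.92 ± 0.78.

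Among other miRNA linked to inflammatory signalling, at most 4 of 10 were called at any 1 time point. Of the list (miR-155-5p, miR-132-3p, miR-212-3p, miR-21a-5p, miR-9-5p, miR-147-3p, miR-187-3p, miR-223-3p, miR-125b-5p and let-7e-5p), all 10 were tested. In C3H mice 1 was called lower at D2 and 1 at D5, in both cases miR-155-5p. This miRNA is induced in activated lymphocytes and macrophages and also stands in the leukocyte list. It fell by 1.51 (SE 0.19, adjusted p = 6.26e-13) at D2 and by 0.79 (SE 0.19, adjusted p = 0.00357) at D5 (edgeR). At D5 1.45% of tested miRNA were called lower in C3H and 7.87% in C57Bl/6 mice. No member of the list was called in C3H mice from M1 to M4. Called lower at D2 in C57Bl/6 mice were 2, miR-155-5p (−1.15, SE 0.19) and miR-125b-5p (−0.69, SE 0.16). At D5 3 were called lower, miR-155-5p (−1.41, SE 0.19), the myeloid miR-223-3p (−1.12, SE 0.17) and let-7e-5p (−1.03, SE 0.20). There 1 was called higher, miR-21a-5p (0.37, SE 0.11). At M1 miR-9-5p was higher (2.04, SE 0.47) and miR-125b-5p lower (−0.42, SE 0.11), and at M4 miR-125b-5p was lower (−0.54, SE 0.16). At D2 the list's 1 of 10 in C3H and 2 of 10 in C57Bl/6 mice stand beside 4.97% and 6.63% of all tested miRNA. The median difference of the list was −0.11 at D2 in C3H mice and −0.07 in C57Bl/6 mice, beside −0.03 and −0.06 over all tested miRNA. At M2 in C57Bl/6 mice, 0 of the 10 were called by edgeR.

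Mice that were sampled at the last time point (M4 for C3H, M6 for C57Bl/6) were compared with irradiated mice of the same label group that were not, at each earlier time point. A missing sample need not mean death. None of 28 comparisons passed, the lowest adjusted p being 0.849 and 0 having an unadjusted p under 0.05 (permutation tests, exact). The lowest unadjusted p was at M1 in C3H mice, where miR-146a-5p was 12.46 ± 0.27 (n = 17) in mice sampled at M4 and 12.67 ± 0.29 (n = 13) in the others (exact permutation test, p = 0.052). The largest difference was that of miR-146b-5p at D5 in C57Bl/6 mice, 0.68 with 4 against 12 mice (exact permutation test, p = 0.201).

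As a description, the 135 miRNA of mean log2 CPM of at least 6 were ranked by likeness to each member. Across the 899 libraries after removing group means, miR-146a-5p was most like miR-34a-5p (Pearson r = 0.58, Spearman rho = 0.60), a p53 target, then miR-23a-3p (r = 0.50), miR-218-5p (r = 0.45), miR-21a-5p (r = 0.43) and miR-126a-5p (r = 0.42), an endothelial miRNA, beside a median r of 0.03 over all compared. miR-146b-5p was most like miR-125b-5p (r = 0.49, rho = 0.48), miR-31-5p (r = 0.46), miR-125a-5p (r = 0.44) and miR-199b-3p and miR-199a-3p (r = 0.41 for each, which share 1 mature sequence in the reference, so that they are in effect 1 measurement), beside a median of 0.04. The members were not close to each other by this measure, with r = 0.10 (rho = 0.10), and miR-146b-5p ranked 56 for miR-146a-5p. Over the 32 group means miR-146a-5p was most like miR-218-5p (r = 0.76, rho = 0.66), miR-532-5p (r = 0.72), miR-30d-5p (r = 0.68), miR-122-5p (r = 0.66) and miR-429-3p (r = 0.66), and miR-146b-5p most like miR-186-5p (r = 0.85, rho = 0.85), miR-7a-5p (r = 0.79), miR-15b-3p (r = 0.79), miR-20a-5p (r = 0.78) and miR-25-3p (r = 0.73), while the members had r = 0.39 with each other. Libraries share mice and scaling, and group means share mice, so these values describe these samples. The means removed were those of strain, treatment and time point, so differences between label groups remain in the values. Their part in the ranking was not tested.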

How the data were processed

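Plasma small RNA libraries of C3H and C57Bl/6 mice were analysed from the table of read counts per mature miRNA that the authors deposited, made by the authors with adapter and quality trimming and alignment to mouse miRNA (build mm10 per the labels) and without normalization. Plasma with excess hemolysis and libraries with large adapter dimer peaks had been excluded before deposit. The miRBase release, the use of molecular identifiers and the assignment of near-identical reads are not given in the sources used here. Groups, mouse numbers, sex and label groups were taken from the labels. No library held the same values as another.

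Counts were fitted with edgeR 4.0.16 (R 4.3.3; filterByExpr, 483 of 1915 miRNA kept, 99.99% of reads; TMM; quasi-likelihood test; a mean for each of 32 groups over all libraries), with Benjamini-Hochberg adjustment within a comparison and a threshold of 0.05. Sex was tested in a model of 64 group and sex means. log2 CPM used a prior count of 2. Changes from PT, ratios (0.5 reads added to each count) and later sampling were compared by two-sided permutation tests over mice or libraries, exact up to 40 samples and with 100000 permutations above. The pairing of samples by mouse was checked by the intraclass correlation, which lay between 0.15 and 0.31 in sham irradiated mice. It also holds differences between label groups. Because mice were sampled repeatedly, p-values of the group fits treat samples of 1 mouse as separate; the mouse was used as a replicate block in alternatives, since its number in the labels marks the same animal. limma 3.58.1 and DESeq2 1.42.0 served for alternatives. The edgeR and limma-voom fits were tested on simulated data. SDs describe the spread between libraries and SEs the uncertainty of a fitted difference. Numbers of reads vary with library depth and between mice and carry counting error as well.

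The members are named by a rule that uses no measured value, but they and the lists of inflammation-linked, leukocyte and red blood cell miRNA were chosen with earlier results of these data known. Named by rule were the members, their 3p arms, listed miRNA past the threshold and the 5 miRNA most like each member. Lists of hepatocyte, muscle and pancreas miRNA were computed as well. Among them miR-122-5p of the hepatocyte list fell at D2 in both strains, by 1.06 (SE 0.31) and 1.69 (SE 0.31) on the log2 scale in C3H and C57Bl/6 mice, miR-192-5p of the same list was higher by 0.72 (SE 0.18) and 0.92 (SE 0.19), miR-375-3p of the pancreas list was higher there by 1.16 (SE 0.18) and 2.37 (SE 0.19), and 0 muscle miRNA were called at any time point by edgeR.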

Additional observations from a re-analysis of the deposited data

How the results depend on the processing

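The D2 and M3 differences of miR-146b-5p kept their sign under every alternative run and passed in 14 of 16 (C3H, D2), 14 of 16 (C57Bl/6, D2) and 14 of 15 (C3H, M3), with ranges of −0.89 to −0.63, −0.97 to −0.49 and −0.86 to −0.75. That of miR-146a-5p in C3H mice at D2 ranged from −0.69 to −0.15 and passed in 9 of 16 (adjusted p 0.0109 to 0.895), and that in C57Bl/6 mice at M2 from 0.39 to 0.57 and passed in 6 of 15 (0.0225 to 0.141). Alternatives that leave out mice by label group have fewer mice; for the others the cause was not tested. The number of called time points of miR-146a-5p in C3H mice went from 1 to 0 with RLE size factors, the study's quantile normalization, no filter on low counts, no libraries under 500000 reads, only the groups compared, within G1 and G2, and the mouse as a fixed replicate block. In C57Bl/6 mice it went from 0 to 1 with limma-voom, the label group as a covariate, sex and label group as a block, within G1 and G2, and the mouse as a random or fixed replicate block. For miR-146b-5p it went from 2 to 1 in C3H mice within G1 and G2 and with the fixed replicate block, and from 1 to 0 in C57Bl/6 mice with only the groups compared. Within G3 and G4, sampled to M1, no such number was computed. The strain and sex differences in the irradiation effect stayed above the threshold under the alternatives run (30 and 28 values). The adjusted p of the sex difference in sham mice was 0.056 for miR-146a-5p in C57Bl/6 mice with the quantile normalization, and for miR-146b-5p in C3H mice 0.0431 without a filter and 0.0373 with miRNA of mean log2 CPM of at least 6. That of the change with time of miR-146b-5p in sham irradiated C57Bl/6 mice was 0.0825 with limma-voom, 0.0567 without a filter, 0.065 without libraries under 500000 reads, 0.0788 within G1 and G2, and 0.0773 with the random replicate block.

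Differences that changed sign were at most 0.22 in size and passed the threshold neither before nor after. For the irradiation effect of miR-146a-5p these were C3H at PT (−0.0006 with sex as a covariate, −0.086 within G3 and G4), M1 (0.022 with quantile normalization, 0.11 within G1 and G2) and M4 (−0.13 with the fixed replicate block), and C57Bl/6 at M5 (0.0065 with DESeq2 and with RLE, 0.018 with the stricter filter, 0.046 without mice lacking PT, 0.098 with the fixed replicate block). For miR-146b-5p they were C3H at M2 (−0.045 with limma-voom, −0.020 with the sex and label group block, −0.033 and −0.018 with the random and fixed replicate blocks) and M4 (0.0025 with quantile normalization, 0.0027 without libraries under 500000 reads), and C57Bl/6 at PT (−0.0075 without those libraries, −0.0090 within G3 and G4), D5 (0.22 within G3 and G4), M1 (0.034 with quantile normalization, 0.12 within G3 and G4) and M4 (0.024 with the fixed replicate block). The strain difference of miR-146a-5p in sham mice at PT kept its sign and passed within G1 and G2 (0.69, SE 0.15, adjusted p = 3.52e-05, edgeR). In sham mice the strain difference of miR-146a-5p was −0.22 at PT and −0.062 at M1 within G3 and G4 and 0.037 at M2 with the stricter filter. Its change with time was −0.030 in C3H mice at D5 within G3 and G4, and in C57Bl/6 mice 0.10, 0.0079 and 0.17 at M2 within G1 and G2 and with the random and fixed replicate blocks, 0.13 at M4 with the fixed block and −0.059 at M6 with quantile normalization. Scaled by total reads, the change from PT differed by −0.0005 (M3) and 0.018 (M4) in C3H and 0.11 (D2) and 0.037 (D5) in C57Bl/6 mice for miR-146a-5p, and by 0.13 (M3) and 0.058 (M4) in C57Bl/6 mice for miR-146b-5p. The ratio at D5 in C57Bl/6 mice differed by −0.011 over libraries with at least 10 reads of both. The fits within label groups and with the random block in sham mice, and the comparison of label groups at PT, were chosen after seeing the data. Depth limits miR-146b-5p most, at a median of 34 reads in irradiated C57Bl/6 mice at D2.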
